A study of Mus musculus with 4 samples.

Results

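The membrane skeleton is the protein mesh that lines the inner face of the plasma membrane, and 9 of its genes were examined in lenses of young mice with hyperactive PDGFRβ. They are the ankyrin genes *Ank1*, *Ank2* and *Ank3*, the spectrin genes *Sptan1*, *Sptb* and *Sptbn1*, the tropomodulin gene *Tmod1*, and *L1cam* and *Nrcam* of the L1 family of adhesion molecules. They were chosen by name out of 56748 genes of the deposited table, with the FPKM of these same libraries already known. The mutant and control values of these 9 genes are therefore described without a test.

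RNA was sequenced from lenses of 10 to 12 day old mice, in 2 mutant libraries from *Fsp1-cre;Pdgfrb+/D849V* animals and 2 control libraries labelled *Fsp1-cre;Pdgfrb+/+*. Per the study's methods, the control pools also took in cre-negative *Pdgfrb+/+* and *Pdgfrb+/D849V* mice. Lenses from several mice were pooled for every library. The mice came from an FVB/N line that also carries the *Rosa-LSL-tdTomato* reporter, and p-values measure only the spread between these pools. Cre was driven by the *Fsp1* (*S100a4*) promoter and the activating allele by the endogenous *Pdgfrb* promoter, neither of which is specific to the lens. FPKM per gene do not tell the D849V transcript from the wild-type transcript. *Pdgfrb* itself, the altered gene, had 2.36 and 2.16 mutant and 2.25 and 1.79 control FPKM. The libraries held between 18561682 and 18878768 reads assigned to genes, of which crystallin genes took between 58.6% and 62.9%.

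Spectrin is a long flexible rod made of an alpha and a beta chain, and rods join short actin filaments into a lattice under the membrane. Ankyrins bind the beta chain on their inner side and ion transporters and adhesion molecules of the L1 family on their outer side, and so fasten the lattice to the membrane. Tropomodulin caps the slow-growing end of the short actin filaments. In the lens, this lattice lines the long hexagonal fibre cells and is known for holding their shape, packing and stiffness.

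*Sptan1* (ENSMUSG00000057738, chromosome 2, 29855572 to 29921463), the alpha chain of nonerythroid spectrin, was the most abundant of the 9 genes. It had 63.6 and 64.8 FPKM in mutant replicates 1 and 2, and 69.7 and 74.1 FPKM in control replicates 1 and 2. Both mutant libraries lay below both control libraries. Mean FPKM was 64.2 ± 0.875 (SD, n = 2) in mutant and 71.9 ± 3.16 (SD, n = 2) in controls, and the log2 fold change was -0.16 (standard error 0.086). Fold changes were computed on log2(FPKM + 0.1), mutant over control. In mean control FPKM, *Sptan1* ranked 220 among 21970 protein-coding genes, and it was covered by 15220 to 18354 reads per library.

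*Sptbn1* (ENSMUSG00000020315, chromosome 11, 30049395 to 30218175), the widely used beta chain that pairs with *Sptan1*, had 29.7 and 32.2 FPKM in the mutant and 35.4 and 38.4 FPKM in the control libraries. The groups did not overlap, and the log2 fold change was -0.25 (standard error 0.096). The long non-coding RNA gene *Gm29237* lies within *Sptbn1* on the opposite strand, with a length of 448 bases and 68 to 107 reads per library, against 9262 to 12391 reads of *Sptbn1*. Whether reads were counted by strand is not given in the sources used here, so reads of the 2 genes cannot be told apart where they overlap. *Sptb* (ENSMUSG00000021061, chromosome 12, 76627262 to 76757321), the beta chain best known from red blood cells, had 14.8 and 16.7 mutant and 19.7 and 18.6 control FPKM. Its libraries parted by genotype as well, with a mean that was 17.8% lower in mutant lenses and a log2 fold change of -0.28 (standard error 0.10).

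*Ank2* (ENSMUSG00000032826, chromosome 3, 126715261 to 127292999) encodes ankyrin-B, the ankyrin known from lens fibre cells. It had 10.9 and 11.3 FPKM in the mutant and 12.8 and 13.0 FPKM in the control libraries. Replicates lay close together and the groups did not overlap. The log2 fold change was -0.21 (standard error 0.090). *Ank3* (ENSMUSG00000069601, chromosome 10, 69234603 to 69863268), which encodes ankyrin-G of epithelial lateral membranes and axon initial segments, had 1.27 and 1.42 mutant and 1.26 and 1.11 control FPKM. Of the 9 genes, it alone had both mutant libraries above both control libraries, but mutant replicate 1 and control replicate 1 nearly coincided. The log2 fold change was 0.17 (standard error 0.16), and it was 0.089 without control replicate 2, 0.099 without mutant replicate 2 and 0.10 with a pseudocount of 1. *Ank1* (ENSMUSG00000031543, chromosome 8, 23464860 to 23640513), the ankyrin of red blood cells, had 0.477 and 0.623 mutant and 0.525 and 0.898 control FPKM on 115 to 224 reads. Its groups overlapped. Its log2 fold change of -0.29 had a standard error of 0.30, and it ran from -0.63 to 0.048 when each library was left out in turn, the positive value being that without control replicate 2.

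*Tmod1* (ENSMUSG00000028328, chromosome 4, 46038935 to 46116032), the tropomodulin of red blood cells and lens fibres, had 15.7 and 15.4 FPKM in the mutant and 14.8 and 17.6 FPKM in the control libraries. Both mutant values fell between the control values. The log2 fold change was -0.06 (standard error 0.11), and it was 0.065 without control replicate 2. The span of *Tmod1* shares 1287 bases with *Tstd2* on the opposite strand, which had 142 to 186 reads per library against 1101 to 1278 reads of *Tmod1*.

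*Nrcam* (ENSMUSG00000020598, chromosome 12, 44375668 to 44648747), an ankyrin-binding adhesion molecule first known from neurons, had 17.2 and 17.7 FPKM in the mutant and 20.2 and 22.6 FPKM in the control libraries. The groups did not overlap, and the mean was 17.5 ± 0.361 (SD, n = 2) against 21.4 ± 1.66 (SD, n = 2), a log2 fold change of -0.29 (standard error 0.098). *L1cam* (ENSMUSG00000031391, chromosome X, 72897384 to 72939711), the founding member of its family, was all but absent. Mutant replicates 1 and 2 had 0 and 4 reads, and control replicates 1 and 2 had 1 and 2 reads. A count of 0 in mutant replicate 1 allows up to 0.0229 FPKM, counting error only. The span of *L1cam* shares 4664 bases with *Arhgap4*, which had 15 to 31 reads per library. *L1cam* did not reach the mean of 0.1 FPKM that was asked of a gene before testing, so 8 of the 9 genes entered the fit over all genes, and no fold change is given for it.

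Of the 9 genes, 5 (*Sptan1*, *Sptbn1*, *Sptb*, *Ank2* and *Nrcam*) had both mutant libraries below both control libraries, where 18.3% of the 15997 genes tested did so. In 1 gene, *Ank3*, the order was the opposite, as in 18.2% of the genes tested. Nothing is read from these counts, because the choice of the genes rested on the same libraries. When any 1 library was left out, the 5 genes kept a negative log2 fold change, which lay between -0.21 and -0.12 for *Sptan1*, between -0.24 and -0.18 for *Ank2* and between -0.37 and -0.21 for *Nrcam*. For *Sptbn1* it lay between -0.31 and -0.19, and for *Sptb* between -0.37 and -0.20.

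**Figure D1:**
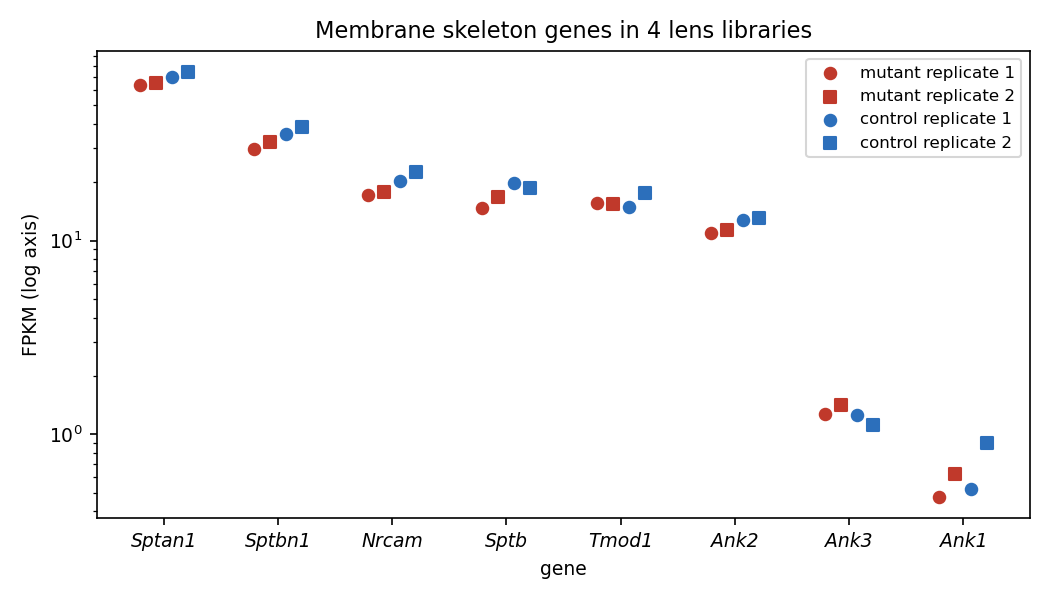
FPKM (log axis) of 8 of the 9 membrane skeleton genes in each library, in the order of their mean control FPKM; circles are replicate 1 and squares replicate 2, red mutant and blue control. *Sptan1* lies between 63.6 and 74.1 FPKM and *Ank1* between 0.477 and 0.898 FPKM, and *L1cam*, at or near 0, is not drawn.

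By level, the genes fell into a high tier from *Sptan1* to *Ank2* and a low tier of *Ank3*, *Ank1* and *L1cam*. Over the 4 libraries, the range of *Nrcam* (17.2 to 22.6 FPKM) overlapped that of *Sptb* (14.8 to 19.7 FPKM), which in turn overlapped that of *Tmod1* (14.8 to 17.6 FPKM). Every other pair of neighbours in the order was separate, and the widest steps were a 10.9-fold step in mean control FPKM from *Ank2* to *Ank3* and the step down to *L1cam*.

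**Figure D2:**
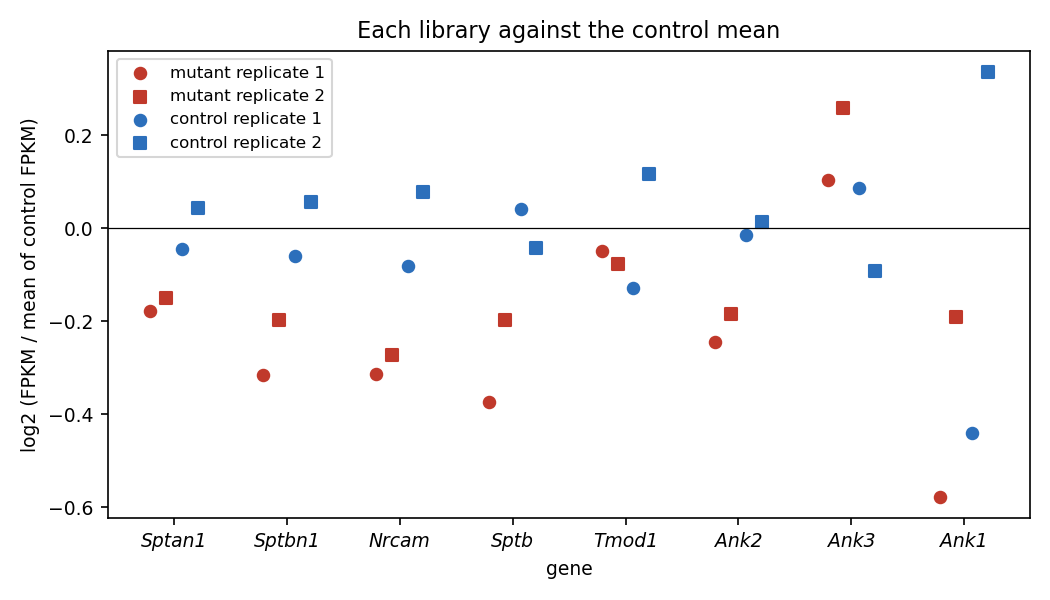
Log2 ratio of each library's FPKM to the mean of the control libraries for 8 membrane skeleton genes, with symbols by library and 0 marking the control mean. The mutant libraries lie below both control libraries in *Sptan1*, *Sptbn1*, *Nrcam*, *Sptb* and *Ank2*, between them in *Tmod1*, and above them in *Ank3*.

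In the ankyrin, tropomodulin and L1 families a single gene carried most of the FPKM. *Ank2* made up between 84.7% and 87.7% of the ankyrin FPKM of a library, *Ank3* between 7.40% and 10.6%, and *Ank1* between 3.61% and 5.98%. *Tmod1* held 90.6% to 94.5% of the tropomodulin FPKM, with *Tmod2* at 3.86% to 4.65%. *Nrcam* held 96.4% to 97.3% of the L1 family FPKM, *Nfasc*, the neurofascin gene, 2.48% to 3.40%, and *Chl1* and *L1cam* traces.

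**Figure D3:**
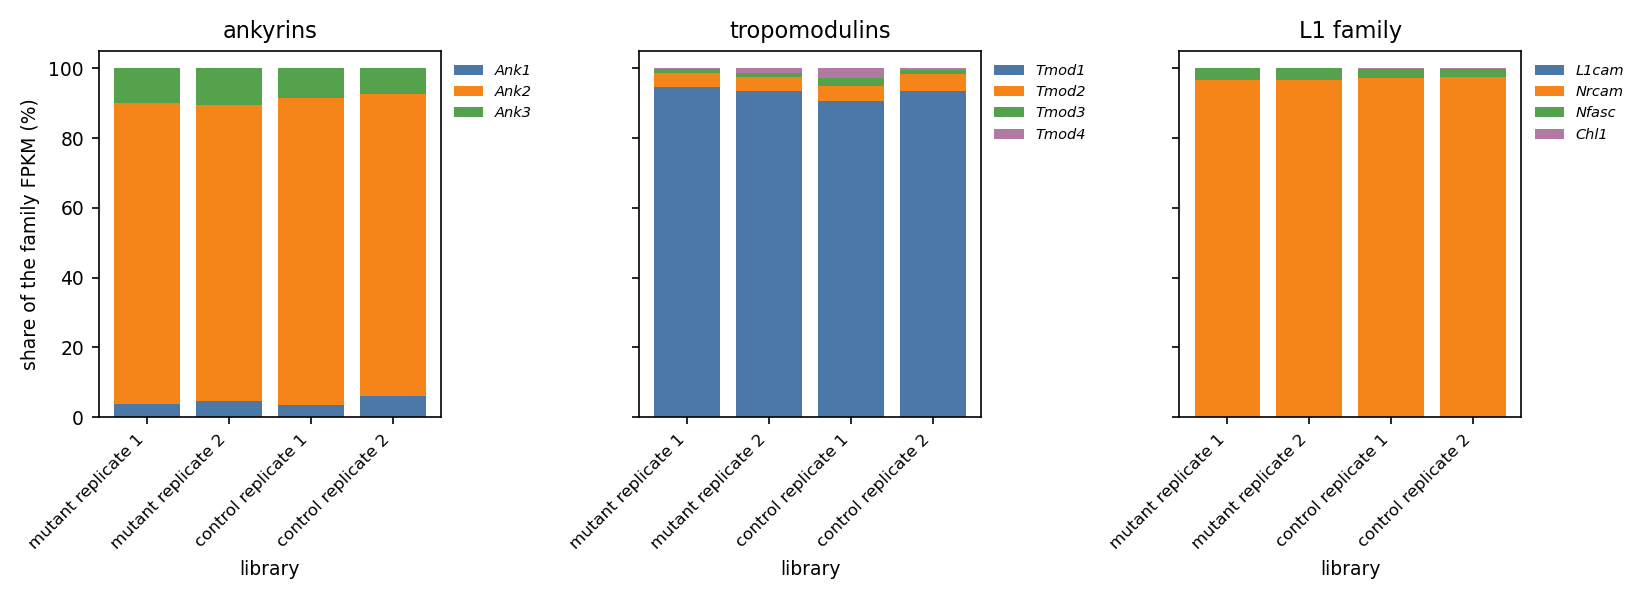
Share of each gene (%) in the summed FPKM of its family, per library, for ankyrins, tropomodulins and the L1 family. *Ank2*, *Tmod1* and *Nrcam* take most of their family in every library.

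The ratio of *Sptbn1* to *Sptan1* FPKM, a beta chain to its alpha chain, was 0.467 and 0.497 in mutant and 0.509 and 0.518 in control lenses. Its groups did not overlap. *Sptbn1* exceeded *Sptb* 2.01-fold and 1.93-fold in mutant and 1.80-fold and 2.07-fold in control lenses, with overlapping groups. The ratio of *Nrcam* to *Ank2* FPKM, the adhesion molecule to its ankyrin, was 1.582 and 1.563 in mutant and 1.585 and 1.733 in control lenses. These groups did not overlap either, but mutant replicate 1 and control replicate 1 nearly coincided. Nothing is read from the order of these ratios, because the genes were chosen with the same libraries known. The shares and ratios describe transcripts per length, not proteins, and cover all transcripts of a gene at once.

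The 150 bases before a RefSeq start site are shown for the 5 members whose mutant libraries lay below the controls. They are also shown for *Tmod1*, whose groups overlapped. The build is GRCm38.p6, a build other than that of the deposited table. Capitals mark GC boxes, the letters GGGCGG on either strand, to which factors of the Sp family bind. Where a gene had several start sites, that farthest upstream is shown, and it need not be the one used in the lens. Use of the start sites was not tested, so the stretch shown for *Sptbn1* may not be its promoter.
Sptan1 (chr2:29965410-29965559, plus strand): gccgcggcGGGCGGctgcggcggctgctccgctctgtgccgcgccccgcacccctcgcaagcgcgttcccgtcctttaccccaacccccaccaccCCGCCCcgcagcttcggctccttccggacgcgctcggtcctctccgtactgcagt
Sptbn1 (chr11:30219773-30219922, minus strand): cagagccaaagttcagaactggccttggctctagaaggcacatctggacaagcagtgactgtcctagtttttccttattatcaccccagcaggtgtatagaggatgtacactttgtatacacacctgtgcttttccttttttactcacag
Sptb (chr12:76710548-76710697, minus strand): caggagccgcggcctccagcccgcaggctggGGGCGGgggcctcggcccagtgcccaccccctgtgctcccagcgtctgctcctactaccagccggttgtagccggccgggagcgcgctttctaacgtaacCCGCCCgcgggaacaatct
Ank2 (chr3:127499116-127499265, minus strand): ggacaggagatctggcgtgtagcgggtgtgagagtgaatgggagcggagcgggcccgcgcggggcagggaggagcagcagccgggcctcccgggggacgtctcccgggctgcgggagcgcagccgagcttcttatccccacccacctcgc
Nrcam (chr12:44328735-44328884, plus strand): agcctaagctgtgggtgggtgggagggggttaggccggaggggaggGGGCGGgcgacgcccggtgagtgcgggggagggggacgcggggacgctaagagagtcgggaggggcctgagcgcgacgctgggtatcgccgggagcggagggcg
Tmod1 (chr4:46039072-46039221, plus strand): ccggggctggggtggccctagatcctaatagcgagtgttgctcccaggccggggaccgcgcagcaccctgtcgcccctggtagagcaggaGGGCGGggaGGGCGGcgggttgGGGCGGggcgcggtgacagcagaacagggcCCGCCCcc

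In the 250 bases before the start site, GC boxes were found 5 times in *Sptan1*, 4 times in *Tmod1*, 2 times in *Sptb* and 1 time in *Nrcam*, and in 1 of the 2 windows of *Sptbn1* (not that shown) and none of the 4 windows of *Ank2*. Of 12 windows for 7 matched members, 7 held a GC box, as did 32.7% of all 32851 windows in the table, and *Ank1* and *Ank3* were not matched. The windows with a GC box included both windows of *L1cam*, which overlap each other, although *L1cam* was all but absent here. The *Sptbn1* window shown had 46% G and C and 2 CG pairs, against 55.6% and 20 CG pairs in its other window. The members that parted by genotype and *Tmod1*, which did not, both include windows with GC boxes.

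All members but *Tmod1* were longer than the median protein-coding gene tested, and the median log2 fold change fell as gene length rose. The deposited length (summed over the exons of a gene) was 12.1 kb for *Sptb*, 13.4 kb for *Sptan1* and *Nrcam*, 13.5 kb for *Ank1*, 17.5 kb for *Sptbn1*, 34.8 kb for *Ank3* and 35.5 kb for *Ank2*. It was 3.95 kb for *Tmod1* and 7.35 kb for *L1cam*, against a median of 4.44 kb for the 12153 protein-coding genes tested. Among protein-coding genes with a mean of at least 5 FPKM, members left out, the median log2 fold change was 0.10 for 634 genes of up to 2 kb and 0.047 for 1019 genes of 2 to 4 kb. It was 0.0036 for 809 genes of 4 to 8 kb, -0.018 for 158 genes of 8 to 12 kb, and -0.096 for 46 genes over 12 kb. Of these 46 long genes, 43.5% had both mutant libraries below both control libraries, against 6.94% of the shortest class. The 5 abundant members over 12 kb, at -0.16 to -0.29, lay below the median of that class, ranked 8 (*Nrcam*), 9 (*Sptb*), 11 (*Sptbn1*), 15 (*Ank2*) and 24 (*Sptan1*) from the lowest of all 51 genes. *Tmod1*, in the class of 2 to 4 kb, was at -0.06. Median log2 ratios of the long genes to the control mean were -0.086 and -0.079 in mutant replicates 1 and 2 and -0.031 and 0.031 in control replicates 1 and 2. Those of the shortest class were 0.16 and 0.027 for mutant replicates 1 and 2 and -0.017 and 0.017 for control replicates 1 and 2. The length classes were set after the values were seen, RNA integrity is not given in the sources used here, and the part of length in the members' values was not tested.

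**Figure D4:**
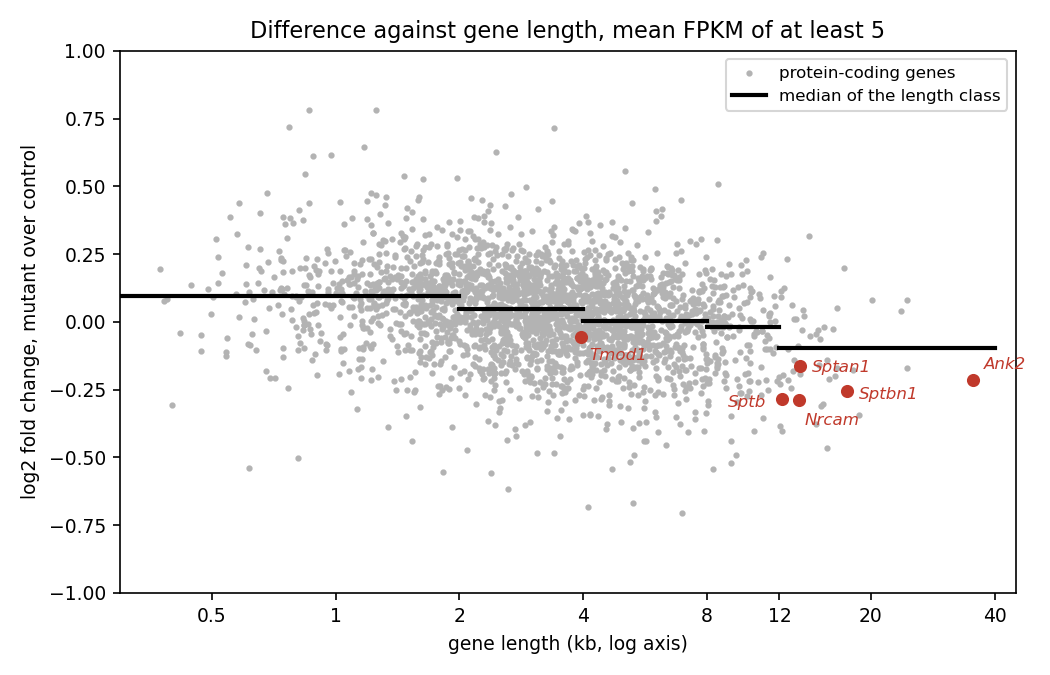
Log2 fold change, mutant over control, against gene length (kb, log axis) for protein-coding genes with a mean of at least 5 FPKM; grey points are genes, black lines the medians of 5 length classes without the members, and red points 6 members. The medians go from 0.10 in the shortest to -0.096 in the longest class, and 5 members lie at the long end; 4 genes outside the axes are not drawn.

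Other cells that use ankyrins, spectrins or L1-family proteins were looked for by their markers, of which 60 of 61 were found in the table. In bulk tissue, fewer cells of a type and less RNA per cell cannot be told apart. The 7 erythroid markers found summed to 25.2 and 17.3 FPKM in the mutant and 35.0 and 21.7 FPKM in the control libraries, mainly from the globin gene *Hba-a1*. *Hba-a2* was at 0 in every library beside 145 to 343 reads of *Hba-a1*, and a 0 does not tell missing RNA from reads not assigned to a gene. *Epb42*, which encodes a partner of ankyrin in red blood cells, was also at 0 in every library. *Slc4a1*, the anion exchanger that ankyrin holds there, reached at most 0.0105 FPKM. *Gypc* and *Mpp1*, listed with them among the junctional complex genes, were measured on 14 to 45 and 17 to 23 reads per library. *Gypc* had 0.337 and 0.986 mutant and 0.331 and 0.489 control FPKM. *Mpp1* had 0.231 and 0.220 mutant and 0.192 and 0.173 control FPKM. *Slc4a1*, *Epb42*, *Gypc* and *Mpp1* were named after their values were seen. The 3 erythroid markers tested, all globin genes, had negative log2 fold changes of -0.50 to -0.24, with overlapping groups. The part of red blood cells in the *Sptb* and *Ank1* values was not tested. The 7 neuronal markers summed to 1.62 and 1.74 mutant and 1.59 and 1.49 control FPKM, mostly from *Tubb3*, and the synaptic gene *Snap25* reached at most 0.0379 FPKM, against 17.2 to 22.6 FPKM of *Nrcam*. Photoreceptor markers summed to 0.343 to 2.90 FPKM. Markers of pigmented epithelium and ciliary body, with *Rpe65* at 0 in every library and *Pmel* the highest, summed to 0.167 to 0.609 FPKM, and glial markers, mainly *Gfap*, to 3.25 to 4.03 FPKM.

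Blood vessel and macrophage markers were measured at low level, and none passed the adjusted threshold. All 6 vascular markers tested had a negative log2 fold change, with sums of 5.03 to 6.60 FPKM in mutant and 8.01 to 8.62 FPKM in control lenses, but the groups overlapped in all of them except *Rgs5* and *Esam*. *Rgs5* of pericytes was the highest of them (log2 fold change -0.59, limma adjusted p = 0.736, unadjusted p = 0.0215), and *Esam* of endothelium had -0.75 (adjusted p = 0.687, unadjusted p = 0.0117). All 3 macrophage markers tested, *C1qa*, *C1qb* and *Cd68*, had a positive log2 fold change of 1.04 to 1.37 (limma adjusted p of 0.736 to 0.788). The macrophage list summed to 1.72 to 1.88 FPKM in mutant and 0.515 to 0.774 FPKM in control lenses. These 3 macrophage markers rest on only 1 to 19 reads per gene and library. The part of these cells in the members' values was not tested. Of lens markers, *Cryba1* led the fibre list and *Dkk3* the epithelial list at 388 to 432 FPKM, whereas *Lim2* was listed at 0 in every library. Such a 0 does not tell missing RNA from reads that were not assigned to the gene. *Lgsn* (lengsin) had 19.0 and 5.54 mutant and 28.5 and 41.0 control FPKM (log2 fold change -1.72, limma adjusted p = 0.769, unadjusted p = 0.0305). Limma on log2 FPKM called 0 of the 36 tested markers at an adjusted p under 0.05, 6 had an unadjusted p under 0.05, as did 1009 of the 15997 genes tested, and limma's voom on recovered reads called 1, *Lgsn*, of 14 genes it called in all.

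Genes linked to the membrane skeleton were taken from a list of 57 genes in 7 roles, drawn up by function, with earlier results of these data known, of which 53 were tested. With limma and adjustment over all genes, 0 of the 53 had an adjusted p under 0.05, where 0.0375% of all genes tested did. An unadjusted p under 0.05 was found for 3 of them, all lower in mutant lenses, and for 0 that were higher, against 2.92% and 3.39% of all genes tested. Voom on recovered reads also called 0 of the 53, with 8 at an unadjusted p under 0.05, as were 1189 of all 15997 genes by voom. The limma count of 3 was 0 without mutant replicate 1, 7 without mutant replicate 2, 1 without control replicate 1 and 2 without control replicate 2. The log2 fold change was negative in 33 and positive in 20, with a median of -0.06 against 0.0041 over all genes tested, of which 49.3% were negative. The groups parted with mutant lower in 35.8% and with mutant higher in 13.2%, against 18.3% and 18.2% of all genes tested. Of the 21 linked genes over 8 kb, 16 had a negative log2 fold change (median -0.22), as did 17 of the 32 shorter genes (median -0.03). Both mutant libraries lay below both control libraries in 13 of these 21 long genes and in 6 of these 32 shorter genes. The linked genes tested had a median length of 6.33 kb, against 4.44 kb for all protein-coding genes tested. Nothing is read from these shares, because earlier results were known when the list was drawn up. The part of length in them was not tested.

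Of the 3 genes, *Prx* and *Utrn* are described. *Prx*, which encodes periaxin, a scaffold protein of Schwann cells and lens fibres, had 21.0 and 22.0 mutant and 27.0 and 25.6 control FPKM (log2 fold change -0.29, standard error 0.089, limma adjusted p = 0.736). *Utrn*, which encodes utrophin, a linker of actin to the dystroglycan complex, had 0.626 and 0.734 mutant and 0.974 and 1.02 control FPKM (log2 fold change -0.49, standard error 0.18, limma adjusted p = 0.783). In both genes the mutant libraries lay below both control libraries, and neither passed the adjusted threshold.

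By role, 6 of 10 tested genes of the junctional complex, which holds spectrin to actin, had a negative log2 fold change, and its most abundant members were the adducins *Add1* at 0.044 (standard error 0.088) and *Add2* at -0.22 (standard error 0.16). Actin filaments and their ends had 8 of 13 negative, with the cytoplasmic actins *Actb* at 0.096 (standard error 0.11) and *Actg1* at -0.14 (standard error 0.090). Other adhesion molecules had 6 of 7 negative, with *Ctnnb1*, the beta-catenin gene, at -0.05 (standard error 0.097) and *Cadm1*, an adhesion molecule of the immunoglobulin family, at -0.09 (standard error 0.087).

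Ankyrin-bound transporters and channels had 3 of 4 negative, with *Atp1b1*, the beta subunit of the sodium pump, at -0.14 (standard error 0.14). Lens fibre partners and membrane linkers divided evenly, 5 of 10 on either side. The intermediate filament genes *Bfsp1* (filensin), at 2911 to 3533 FPKM, and *Vim* (vimentin) had log2 fold changes of 0.13 (standard error 0.14) and 0.048 (standard error 0.11). Of the spectrin-cleaving calpains, caspase 3 and their inhibitor calpastatin, 3 of 6 were negative. The most abundant were the calpain subunit *Capns1*, with 62.6 and 60.0 mutant and 51.5 and 54.5 control FPKM (log2 fold change 0.21, standard error 0.087, limma adjusted p = 0.805), and *Capn2* at -0.06 (standard error 0.097). With libraries scaled to equal FPKM outside crystallins, the number of negative linked genes was 37 in place of 33.

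**Figure D5:**
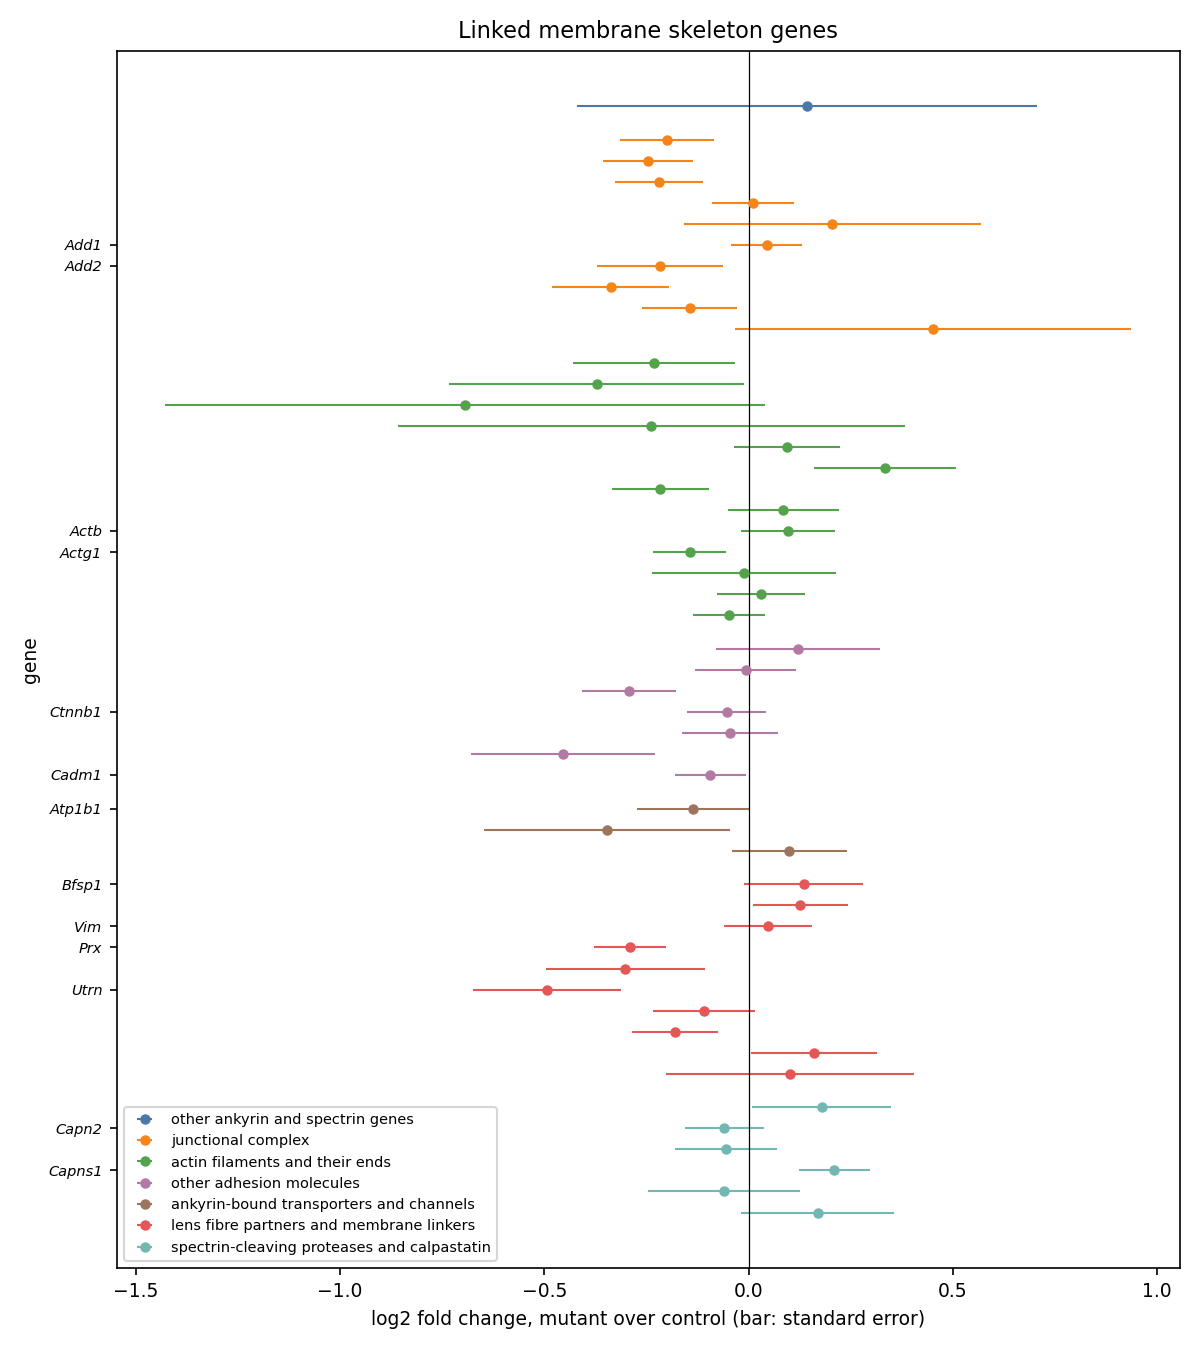
Log2 fold change, mutant over control, of 50 of the 53 linked genes tested, by role, with 13 genes named. Left out are 3 negative genes that are not reported. Points are the fitted values on log2(FPKM + 0.1) and bars their standard errors. Of the points, 30 lie below 0, among them *Prx* and *Utrn*.

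Sex composition differed between pools. *Xist*, expressed from the inactive X chromosome, had 7.62 and 13.1 FPKM in the mutant and 15.6 and 5.56 FPKM in the control libraries, and the Y-linked gene *Eif2s3y* ran the other way at 7.10 and 4.82 mutant and 3.02 and 7.13 control FPKM. *Ddx3y*, *Kdm5d* and *Uty* were measured between 0.234 and 3.87 FPKM. Of the members, only *L1cam* lies on the X chromosome. Pools of mutant replicate 2 and control replicate 1 were thus those with more *Xist*, 1 of either genotype, so a term for this split leaves the members' fold changes as they are by construction.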

How the data were processed

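Reads were aligned with HISAT2 and assigned to genes by featureCounts at the authors' sequencing provider. The authors deposited FPKM (fragments per kilobase of gene length, with a scale for each library) for 56748 genes. That scale did not follow the number of reads assigned to genes. Mutant replicate 1 had the most reads, yet 3 reads of *Ank2* were worth 0.00474 FPKM there, against 0.00432 to 0.00458 FPKM in the other libraries. The submitters' processing notes name the build mm39, and positions are those of the deposited table. Scaling by median ratios (to each gene's geometric mean over libraries) gave the same factor, 1.01, in all 4. The deposited FPKM were thus already equal by this measure and were kept. A fit without rescaling is the same fit, and equal factors do not show that no other scaling was needed. Genes with a mean of at least 0.1 FPKM were tested on log2(FPKM + 0.1) with limma (lmFit, eBayes with a trend, two-sided, Benjamini-Hochberg adjustment over all 15997 genes). FPKM times length gave whole reads for 100% of values above 0 (tolerance 0.01 reads), and limma's voom on these reads, an alternative, called 14 genes. The test was also tried on simulated data. The members and lists were chosen with earlier results of these data known.

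Genes were named by a rule: all 9 members, linked genes and markers with an unadjusted p under 0.05, the 2 most abundant linked genes of each role, the most abundant marker of each list, markers at 0 in all libraries, and *Xist* with 4 Y-linked genes. *Slc4a1*, *Epb42*, *Gypc*, *Mpp1*, *Snap25*, *Pdgfrb*, *Gm29237*, *Tstd2*, *Arhgap4* and the further family members given with their shares lie outside this rule. They were named after their values were seen. Some genes that the rule names, and the spectrin family shares, are not reported here. Promoter windows came from a RefSeq table. Models were run in R 4.3.3 with limma 3.58.1, and tables and plots were made in Python 3.11.15 with pandas 2.3.3, matplotlib 3.10.9 and numpy 2.4.6.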

Additional observations from a re-analysis of the deposited data

How the results depend on the processing

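Over all genes, limma called 6 at an adjusted p under 0.05. It called 1 with a term for the *Xist* level and 1 with every gene above 0 FPKM tested. It called 2 without a trend, with a pseudocount of 1 or of 0.01, and with a mean of at least 1 FPKM asked, and voom called 14. Leaving out any 1 of the 4 libraries gave 0 calls each time (lowest 0, highest 0), with 787 to 1465 genes at an unadjusted p under 0.05, and the lone library of a group is then assumed to vary like the others. With the replicate number as a replicate block it called 3, and linked genes at an unadjusted p under 0.05 went from 3 to 0. Same-numbered libraries did not deviate together (r = -0.0051 across 15997 genes), and the labels tie no number to a litter or day. Linked genes stayed at 0 called in every setting, and markers too but for 1 by voom. The 8 tested members kept their sign in every setting with 4 libraries in which they were fitted (*Ank1* was not at a mean of at least 1 FPKM), and *Ank1* and *Tmod1* changed it without control replicate 2. With libraries scaled to equal FPKM outside crystallins, *Sptan1* was at -0.21 and *Ank2* at -0.26. With reads in place of FPKM, the mean shares were 89.0% for *Ank2* and 84.2% for *Tmod1*, since reads grow with gene length. *L1cam* and *Ank1* rest on few reads.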
